A study of Mus musculus with 23 samples.

Results

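The lymphocyte genes followed here are 9 genes of B and T cells (*Cd3e*, *Cd3g*, *Cd79a*, *Cd79b*, *Ms4a1*, *Ptprc*, *Coro1a*, *Ltb* and *Cd37*), out of 18512 gene symbols counted in the pancreas of 23 mice. The genes were chosen by name and all 9 were found. The mice were of the C57BL/6 strain, 6 to 8 weeks old and 20 to 25 g in weight, and of both sexes. A baseline group (4 females, 4 males) was not injured. The other mice received caerulein, a cholecystokinin analogue that overstimulates acinar cells and causes pancreatitis, at 50 µg/kg in 8 hourly intraperitoneal injections on each of 2 days, and were examined at day 7 (4 females, 4 males) or day 14 (3 females, 4 males) post-injury. Tissue came from the head of the pancreas next to the duodenum, as whole tissue rather than sorted cells, and 1 further day 14 female was left out of the study's RNA-seq for poor mapping.

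B cells recognise antigen through an immunoglobulin receptor whose signal is carried by CD79A and CD79B, and T cells through a receptor whose signal is carried by the CD3 chains. Both cell types circulate through lymph nodes, where the chemokines CCL19 and CCL21 made by stromal cells attract them and high endothelial venules admit them. Lymph nodes and fat lie close to the head of the pancreas. In whole tissue, fewer cells of a type and less RNA per cell cannot be told apart.

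All 9 genes are protein-coding and were located with GENCODE vM21 on GRCm38. *Cd3e* (chr9:44998740-45009627, minus strand) and *Cd3g* (chr9:44969572-44980431, minus strand) lie close to each other and encode the epsilon and gamma chains of CD3. *Cd79a* (chr7:24897381-24902197, plus strand) and *Cd79b* (chr11:106311341-106314762, minus strand) encode the signalling chains of the B cell receptor, and *Ms4a1* (chr19:11249675-11266241, minus strand) encodes CD20, a surface protein of B cells. *Ptprc* (chr1:138062861-138175708, minus strand) encodes the leukocyte phosphatase CD45, *Coro1a* (chr7:126699773-126707787, minus strand) an actin-binding coronin of leukocytes, *Ltb* (chr17:35194439-35196320, plus strand) lymphotoxin beta, a ligand needed to build lymph nodes, and *Cd37* (chr7:45233632-45239115, minus strand) a tetraspanin of leukocytes, most of all B cells.

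RefSeq promoter sequences of GRCm38.p6, from 250 bases before to 50 after the start of the transcript, matched 7 of the 9 genes. The promoters of a B cell gene, a T cell gene and the lymphotoxin gene are shown as examples. They are written 5′ to 3′ on the strand of the gene, and capitals mark GGAA or its reverse complement TTCC, the core bound by ETS factors such as PU.1 and ETS1 of blood cells.
Cd79a, chr7:24897247-24897546, plus strand: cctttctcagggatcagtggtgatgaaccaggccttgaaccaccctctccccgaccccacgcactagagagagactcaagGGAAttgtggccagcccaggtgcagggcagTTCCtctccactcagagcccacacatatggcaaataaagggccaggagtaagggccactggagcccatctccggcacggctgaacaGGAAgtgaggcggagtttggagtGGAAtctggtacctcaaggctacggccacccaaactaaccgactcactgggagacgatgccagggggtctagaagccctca
Cd3e, chr9:45009562-45009861, minus strand: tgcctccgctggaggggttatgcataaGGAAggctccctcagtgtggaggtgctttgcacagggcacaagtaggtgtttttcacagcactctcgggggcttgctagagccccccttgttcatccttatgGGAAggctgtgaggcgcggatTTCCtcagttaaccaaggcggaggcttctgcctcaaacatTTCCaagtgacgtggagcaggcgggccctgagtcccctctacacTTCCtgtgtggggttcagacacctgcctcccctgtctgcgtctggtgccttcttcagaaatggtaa
Ltb, chr17:35194257-35194556, plus strand: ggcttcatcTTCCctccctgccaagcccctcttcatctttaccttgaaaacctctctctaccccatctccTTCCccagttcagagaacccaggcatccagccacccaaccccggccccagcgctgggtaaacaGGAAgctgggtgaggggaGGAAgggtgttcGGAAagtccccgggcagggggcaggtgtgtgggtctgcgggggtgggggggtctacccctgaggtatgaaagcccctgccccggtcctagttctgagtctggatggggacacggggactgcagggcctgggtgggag
The core occurred 4 times in the *Cd79a*, 5 times in the *Cd3e* and 5 times in the *Ltb* promoter. It is common: 96.0% of 32851 promoters of this length held it on either strand. The longer form GGAAG was in 71.4% of all promoters and in promoters of 6 of the 7 matched genes, the exception being *Cd3g*. The E-box CANNTG, a sequence bound by basic helix-loop-helix factors, was in 72.3% of all promoters and in promoters of all 7 matched genes. The octamer ATGCAAAT was in 1.74% of all promoters and the Runx core TGTGGT in 16.8%, and neither was in the windows of the 7 matched genes.

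Each mouse had 7059890 to 9567446 counts in total, so that 3 counts, the level taken as the floor, equalled 0.218 to 0.521 CPM, the usual unit of counts relative to the total of the library. Levels are given as CPM after scaling with TMM factors, which ranged from 0.768 to 1.44. Mice are named by their numbers. Those of the baseline group were 1 to 8, those of day 7 were 9 to 16, and those of day 14 were 17 to 19 and 21 to 24.

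The lymphocyte transcripts were concentrated in a few mice of every time point. Mice 5 (baseline), 10 and 15 (day 7) and 21 (day 14) were the 4 highest mice for all 9 genes, and mouse 10 was the highest for each. These 4 mice, singled out after the values were seen, held between 67.9% (*Ptprc*) and 83.5% (*Cd3g*) of all counts of a gene in the 23 mice. Among all 12500 genes with enough counts for testing, 4.99% had the same 4 mice on top.

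The B cell genes showed the pattern with low counts elsewhere. *Ms4a1* ranged from 0 to 12.4 CPM at baseline (median 1.12), from 0.11 to 24.8 CPM at day 7 (median 1.39) and from 0.118 to 17.9 CPM at day 14 (median 0.764). The highest mice were 5, 10 and 21, and mouse 15 stood at 14.1 CPM, whereas no other mouse was above 4.67 CPM. *Cd79b* ranged from 0 to 13.9 CPM at baseline (median 1.12), from 0.11 to 20.3 CPM at day 7 (median 0.93) and from 0 to 12.6 CPM at day 14 (median 0.982). *Cd79a* ranged from 0 to 5.49 CPM at baseline (median 0.387), from 0 to 7.93 CPM at day 7 (median 0.444) and from 0 to 5.65 CPM at day 14 (median 0.112). For each of these genes the ranges of the 3 time points overlapped.

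The T cell genes were the rarest. *Cd3g* ranged from 0 to 2.68 CPM at baseline (median 0.153), from 0 to 8.88 CPM at day 7 (median 0.473) and from 0 to 3.2 CPM at day 14 (median 0.118). *Cd3e* ranged from 0 to 2.2 CPM at baseline (median 0.142), from 0 to 3.2 CPM at day 7 (median 0.263) and from 0 to 1.39 CPM at day 14 (median 0). Outside mice 5, 10, 15 and 21 no mouse had more than 7 counts of *Cd3e*, and 9 mice had none, so that most of their values lay at or near the floor of 3 counts.

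Of the genes shared by lymphocytes and other leukocytes, *Ptprc* and *Coro1a* were detected more widely than the B and T cell genes. *Ltb* had no counts in 4 mice and *Cd37* had none in 3. *Ptprc* was found in every mouse, with 3.28 to 80.7 CPM in baseline mice (median 7.8), 9.06 to 154 CPM in day 7 mice (median 20.6) and 6.58 to 85.8 CPM in day 14 mice (median 9.21). *Coro1a* was also found in every mouse, with 0.864 to 35.6 CPM in baseline mice (median 2.69), 3.53 to 68.6 CPM in day 7 mice (median 7.07) and 1.41 to 37.8 CPM in day 14 mice (median 3.45). *Ltb* ranged from 0 to 7.93 CPM at baseline (median 0.245), from 0 to 14.0 CPM at day 7 (median 0.982) and from 0 to 7.25 CPM at day 14 (median 0.334). *Cd37* ranged from 0 to 6.46 CPM at baseline (median 0.504), from 0.206 to 7.35 CPM at day 7 (median 0.735) and from 0 to 4.69 CPM at day 14 (median 0.557). A second tier of mice was visible in most genes: mice 4 (baseline), 12 and 14 (day 7) and 19 (day 14) followed the first 4, with *Ptprc* at 24, 27.6, 27.7 and 31.6 CPM. When the mice were ordered by the mean log2 CPM of the 9 genes, the widest gap between neighbours, 1.43 on the log2 scale, lay between mice 21 and 19, and the next, 0.911, between mice 14 and 7.

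**Figure D1:**
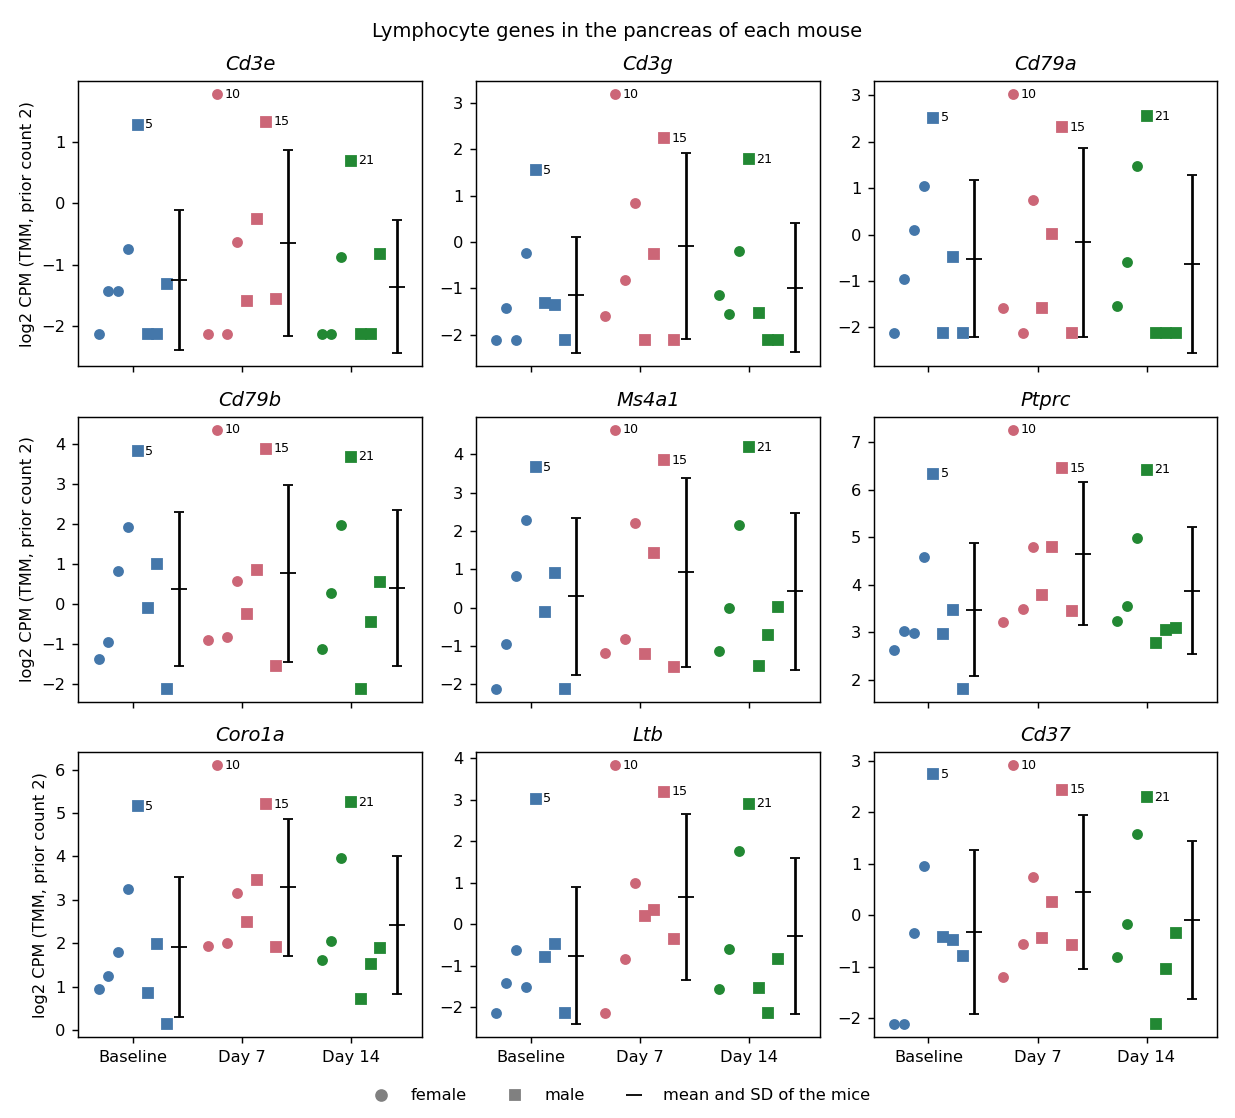
Log2 CPM (y axis; TMM scaling, prior count 2) of each lymphocyte gene in each mouse at baseline, day 7 and day 14 (x axis), with circles for females, squares for males and black bars for the mean and SD of the mice. Mice 5, 10, 15 and 21 are numbered and are the 4 highest points in all 9 panels.

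On the FPKM scale, CPM divided by the exon length in kilobases, which allows genes to be compared, the mean level over the 23 mice was highest for *Coro1a* (4.16), followed by *Cd79b* (2.44), *Ptprc* (1.55), *Ltb* (1.39), *Cd79a* (0.979), *Ms4a1* (0.649), *Cd37* (0.444), *Cd3g* (0.32) and *Cd3e* (0.126). The ranges over mice overlapped between all neighbours in this order. By the median mouse, *Cd37* (0.148) stood above *Ms4a1* (0.123), and the rest of the order was the same.

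The lymphocyte genes were among the most variable genes within each time point, the uninjured mice included. The SD of log2 CPM lay between 1.13 (*Cd3e*) and 2.05 (*Ms4a1*) at baseline (n = 8), between 1.5 (*Cd37*) and 2.46 (*Ms4a1*) at day 7 (n = 8), and between 1.09 (*Cd3e*) and 2.04 (*Ms4a1*) at day 14 (n = 7). The median SD of all tested genes was 0.233, 0.221 and 0.205 at the 3 time points. Of the 12500 tested genes, 0.128% had a larger SD than *Ms4a1* at baseline, 0.128% at day 7 and 0.208% at day 14, and at most 1.56% had a larger SD than any lymphocyte gene tested. Over the 9 genes the median SD was 1.61 for baseline mice, 2.0 for day 7 mice and 1.59 for day 14 mice. Without mice 5, 10, 15 and 21 it was 1.0, 0.922 and 1.22, still above that of the median gene. edgeR's biological coefficient of variation, which removes counting noise, was 1.01 for *Ptprc*, 1.13 for *Coro1a*, 1.34 for *Cd37*, 1.56 for *Cd79b*, 1.64 for *Ms4a1*, 1.68 for *Ltb*, 1.82 for *Cd3g* and 2.05 for *Cd79a*. The trend for genes of the same abundance was 0.124 for *Ptprc* and 0.402 for *Cd79a*, and 12 of the 12500 genes had a higher coefficient than *Cd79a*. *Cd3g*, *Cd79a*, *Ltb* and *Cd37* had enough counts for testing owing to mice 5, 10, 15 and 21. Their ranks by SD and by this coefficient were therefore partly set by that filter. For *Cd79b*, *Ms4a1*, *Ptprc* and *Coro1a*, which were kept without those mice, 0.448%, 0.352%, 1.42% and 1.11% of genes had a higher coefficient.

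The 9 genes rose and fell together from mouse to mouse. For each of the 36 pairs of genes, log2 CPM was correlated over the mice of a time point, and over all 23 mice after the mean of each time point had been subtracted. Over the 23 mice, Pearson's r ranged from 0.871 (*Cd3g* with *Ltb*) to 0.989 (*Ptprc* with *Coro1a*), with a median of 0.915, and Spearman's rho from 0.668 (*Cd3e* with *Ltb*) to 0.961, with a median of 0.841. All 36 pairs passed the permutation test adjusted over 36 relations: every adjusted p for r was 1e-05, the smallest that 100000 permutations can give, and the largest for rho was 0.00064. When the 2 mice farthest from the median of the first gene were left out, r ranged from 0.805 to 0.982. All values of a mouse share its library and scaling factor.

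Part of this rested on the 4 mice with the highest levels. Over the other 19 mice the median r was 0.738 and the range 0.503 (*Cd3e* with *Cd3g*) to 0.962 (*Ptprc* with *Coro1a*), and 36 pairs passed for r (largest adjusted permutation p 0.0285) but 30 for rho. The 3 pairs among the B cell genes *Cd79a*, *Cd79b* and *Ms4a1* kept r between 0.821 and 0.93 in the 19 mice, whereas the 6 pairs of a B with a T cell gene lay between 0.57 and 0.779. *Cd3e* and *Cd3g*, which encode chains of the same receptor, had rho 0.179 (adjusted permutation p = 0.461) in these 19 mice, in which 9 and 7 mice had no counts of *Cd3e* and *Cd3g*. Mice at 0 share almost the same log2 value, so correlations of the rarest genes were set by few mice.

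Within time points the correlations depended on the 2 farthest mice to different degrees. At day 7 (8 mice), r ranged from 0.89 to 0.996 with a median of 0.967, and all 36 pairs passed by an exact permutation test for both r and rho, with largest adjusted p of 0.00387 and 0.038. At baseline (8 mice), r ranged from 0.722 to 0.99 with a median of 0.862, and 35 pairs passed the exact test for r but 12 for rho. At day 14 (7 mice), r ranged from 0.778 to 0.991 with a median of 0.944, and 35 pairs passed for r but 13 for rho. After the 2 farthest mice were left out, the median r was 0.872 at day 7, 0.533 at baseline and 0.825 at day 14, and r was below 0.5 for 0, 16 and 9 of the 36 pairs. For those pairs the relation rested on the 2 mice. Differences between the time points in these correlations were not tested. *Cd79b* with *Ms4a1* was among the steadiest pairs, with r of 0.99, 0.954 and 0.979 at baseline, day 7 and day 14 and 0.988, 0.888 and 0.978 without the 2 mice.

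**Figure D2:**
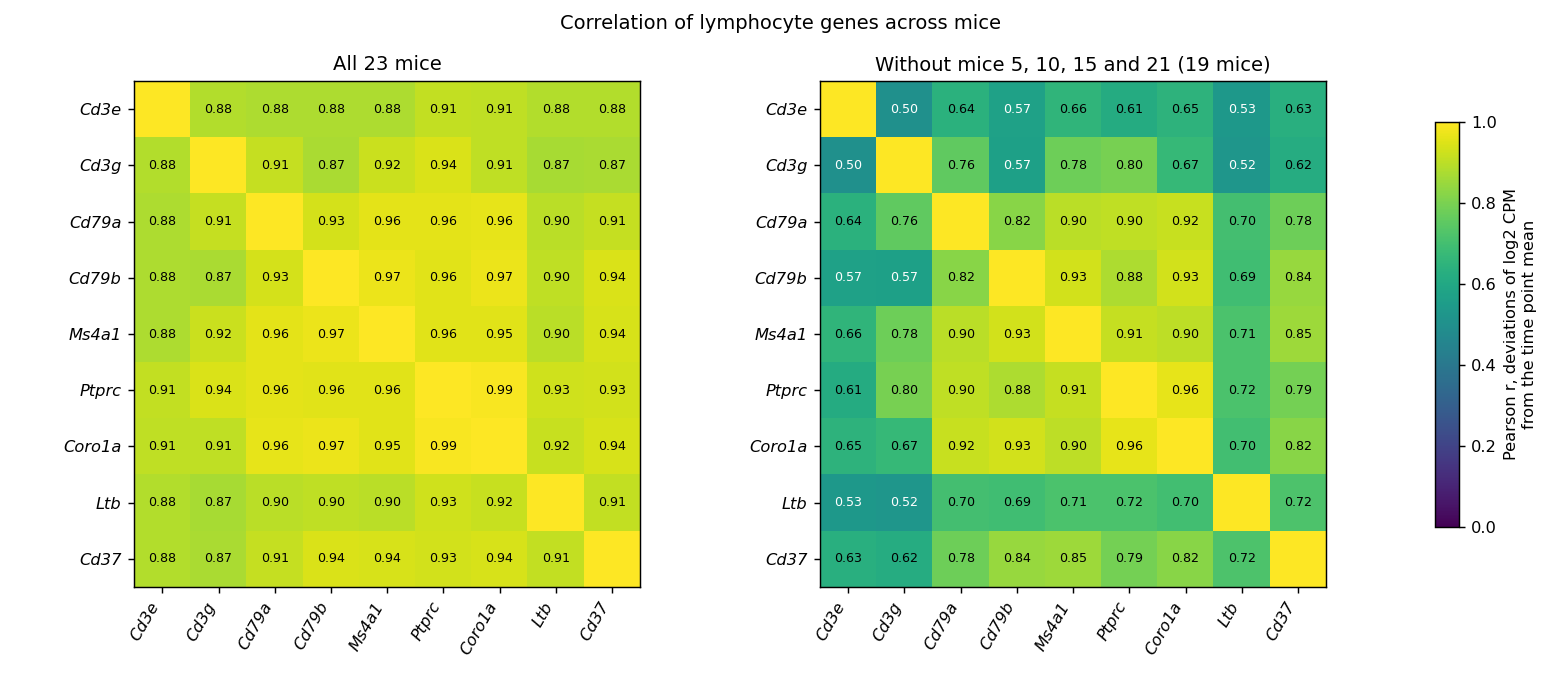
Pearson's r between the lymphocyte genes (rows and columns) for deviations of log2 CPM from the mean of the time point, over all 23 mice (left) and over the 19 mice other than 5, 10, 15 and 21 (right), on a colour scale from 0 to 1. All pairs lie at 0.871 or above on the left, and the lowest values on the right, down to 0.503, are pairs that include *Cd3e* or *Cd3g*.

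The balance of T and B cell transcripts was examined as the share of *Cd3e* and *Cd3g* in the summed counts of *Cd3e*, *Cd3g*, *Cd79a*, *Cd79b* and *Ms4a1*, a ratio within a library that does not depend on scaling. In mouse 10 (day 7) the share was 18.5% (166 of 895 counts, 95% exact binomial interval 16.1 to 21.3%), and in mouse 15 (day 7) 16.8% (74 of 440, 13.4 to 20.6%). In mouse 5 (baseline) it was 13.3% (40 of 301, 9.67 to 17.7%), and in mouse 21 (day 14) 11.3% (43 of 382, 8.27 to 14.9%). In the second tier it was 21.8% in mouse 12 (13.7 to 32.0%) and 20.3% in mouse 14 (11.6 to 31.7%) at day 7, against 8.89% in mouse 4 (3.92 to 16.8%) at baseline and 8.33% in mouse 19 (3.88 to 15.2%) at day 14. These 8 mice all had at least 50 counts over the 5 genes, and their shares lay within 8.33 to 21.8% while the counts differed by over 10 times. In the other 15 mice at most 29 counts were available and the intervals were wide. The intervals cover counting error only.

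**Figure D3:**
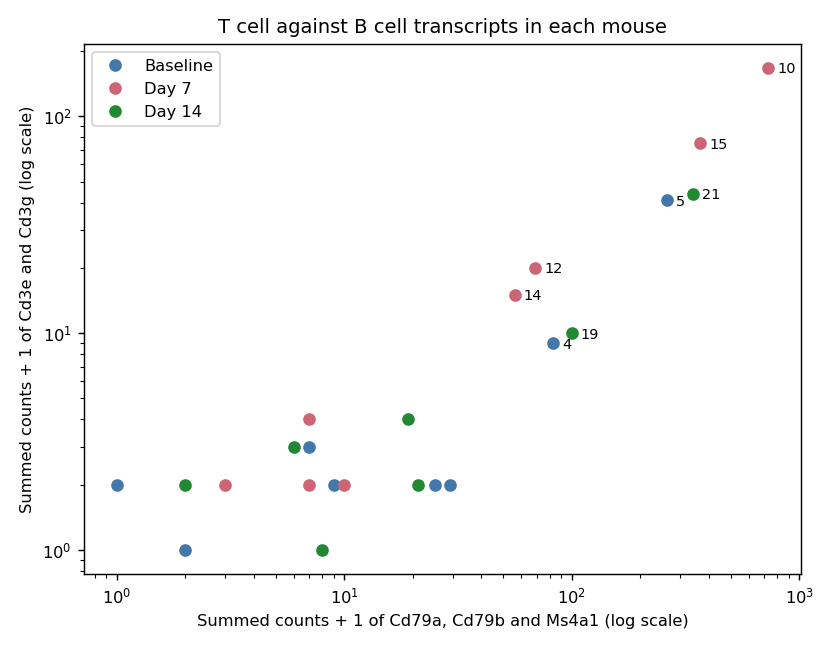
Summed counts plus 1 of the T cell genes *Cd3e* and *Cd3g* (y axis, log scale) against those of the B cell genes *Cd79a*, *Cd79b* and *Ms4a1* (x axis, log scale), 1 point per mouse, with mice of at least 50 counts numbered and some points of low counts on top of each other. The points run from 1 count or less to 729 B and 166 T cell counts in mouse 10. The day 7 mice 12, 14 and 15 lie above the baseline and day 14 mice of like B cell counts, and mouse 10 has no counterpart of like B cell counts.

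Several markers of the surroundings of lymphocytes in lymphoid tissue were high in the same mice, and others were not. *Ccl21a*, a chemokine of lymphoid stroma and lymphatic vessels, had 151, 380, 191 and 157 counts in mice 5, 10, 15 and 21, 68 counts in mouse 19 and at most 27 counts elsewhere. *Glycam1*, a mucin of high endothelial venules, had 42, 626, 59 and 38 counts in these 4 mice and 180 in mouse 19, and 0 or 1 count in all other mice. *Cr2*, the complement receptor of mature B cells and follicular dendritic cells, had 151, 382, 209 and 171 counts in the 4 mice, 72 in mouse 19 and at most 20 elsewhere, and it was counted among the B cell genes as well. *Cxcl13*, the chemokine of B cell follicles, did not follow the order of the 4 mice: it had 11, 52, 64 and 32 counts in them, but 73 in mouse 4, 95 in mouse 14 and 30 in mouse 7. *Prox1* and *Ackr4*, known from lymphatic endothelium, were highest in mouse 12 (7.08 CPM) and mouse 14 (1.83 CPM). Of the 12 lymphoid stroma genes examined, 6 had mice 5, 10, 15 and 21 on top, and the summed level of the list was 71.4 to 149 CPM in these mice and 6.74 to 51.3 CPM in the other 19. Without *Cr2* and *Fcer2a*, which are also on the B cell list, 4 of 10 had these mice on top (*Ccl19*, *Ccl21a*, *Madcam1* and *Lyve1*), and the sum was 46.3 to 113 CPM against 6.45 to 41.6 CPM.

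The other lymphocyte markers followed. All 19 B cell genes found (*Cd79a*, *Cd79b* and *Ms4a1* included) and 21 of 23 T cell genes (*Cd3e* and *Cd3g* included) had mice 5, 10, 15 and 21 on top, the exceptions being *Cd6* and *Tcf7*. The most abundant B cell genes beside the 9 were *Ebf1*, *Cr2* and *Bank1*, and the most abundant T cell genes *Tcf7*, *Lck* and *Il7r*. *Ebf1*, which adipocytes also use, was at 3.73 to 8.37 CPM in the 19 mice and at 9.94 to 12.7 CPM in the 4. *Cd4*, of helper T cells, had 67, 155, 55 and 56 counts and *Cd8a*, of cytotoxic T cells, 33, 124, 47 and 46 counts in mice 5, 10, 15 and 21, and neither exceeded 16 counts elsewhere. *Ccr7*, the receptor that guides lymphocytes to lymph nodes, had 84, 176, 68 and 70 counts in the 4 mice and at most 15 elsewhere. Genes of natural killer and cytotoxic cells, led by *Ccl5*, *Klrk1* and *Klrd1*, were low, with a summed level of 9.64 to 17.2 CPM in the 4 mice and 0.347 to 6.66 CPM in the others.

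Plasma cell transcripts were high in further mice as well. *Jchain*, which encodes the joining chain of polymeric antibodies, was at 27.2, 32.3, 26.3 and 20.6 CPM in mice 5, 10, 15 and 21, but also at 31.0 CPM in mouse 4, 31.4 CPM in mouse 14 and 23.2 CPM in mouse 7. In mouse 7 *Ms4a1* was at 1.62 CPM and *Cd79a* at 0.487 CPM. The summed plasma cell list (*Jchain*, *Pou2af1*, *Mzb1* and *Tnfrsf17*) was 30.5 to 43.0 CPM in the 4 mice and 0 to 34.4 CPM in the other 19. *Pou2af1*, which is also on the B cell list, had the 4 mice on top, and the other 3 genes did not.

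Other cell types of the dissected tissue varied in the same mice to different degrees. The adipocyte list, led by *Fabp4*, *Cfd* and *Adipoq*, summed to 82.4 to 206 CPM in mice 5, 10, 15 and 21 and to 12.4 to 102 CPM in the others, with mouse 14 the highest of these, and 2 of its 7 genes had the 4 mice on top. The macrophage list, led by *Lyz2*, *Mrc1* and *Csf1r*, summed to 185 to 313 CPM in the 4 mice and 58.6 to 283 CPM in the others, and none of its 12 genes had the 4 mice on top. The dendritic cell list, led by *Zbtb46*, *Itgax* and *Clec9a*, summed to 22 to 32.7 CPM against 9.26 to 17.1 CPM. The list of MHC class II genes, led by *Cd74*, *H2-Aa* and *H2-Eb1* and expressed by B cells as by other antigen-presenting cells, summed to 361 to 550 CPM against 22.3 to 247 CPM, and all 9 genes had the 4 mice on top. The endothelial list, led by *Kdr*, *Pecam1* and *Tek*, summed to 80.8 to 116 CPM against 60.5 to 93.2 CPM. The part of these tissues in the lymphocyte levels was not tested.

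Acinar transcripts, which mark the labelled tissue, were abundant in every mouse: the acinar list, led by *Pnlip*, *Cel* and *Cpb1*, summed to 191000 to 397000 CPM in mice 5, 10, 15 and 21 and to 232000 to 487000 CPM in the others. The islet list (*Ins2*, *Ins1* and *Gcg* in front) summed to 386 to 1120 against 127 to 947 CPM, the duct list (*Krt8*, *Spp1* and *Sox9*) to 152 to 181 against 165 to 272 CPM, and the fibroblast list (*Col3a1*, *Dcn* and *Col1a2*) to 501 to 974 against 316 to 1140 CPM. Genes of erythroid cells (*Hbb-bs*, *Hbb-bt* and *Hba-a1*) reached 657 CPM in mouse 15 and stayed at or below 135 CPM in the 19 mice. The neutrophil list (*S100a9*, *Csf3r* and *S100a8*) was highest in mouse 4, at 19.2 CPM, and at 0.854 to 4.38 CPM in the 4 mice. Markers of intestinal epithelium (*Vil1*, *Muc2* and *Lct* in front) summed to at most 1.82 CPM in any mouse, a level reached in mouse 15. *Apoa4* had 5 counts in mouse 19 and 0 in all other mice.

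**Figure D4:**
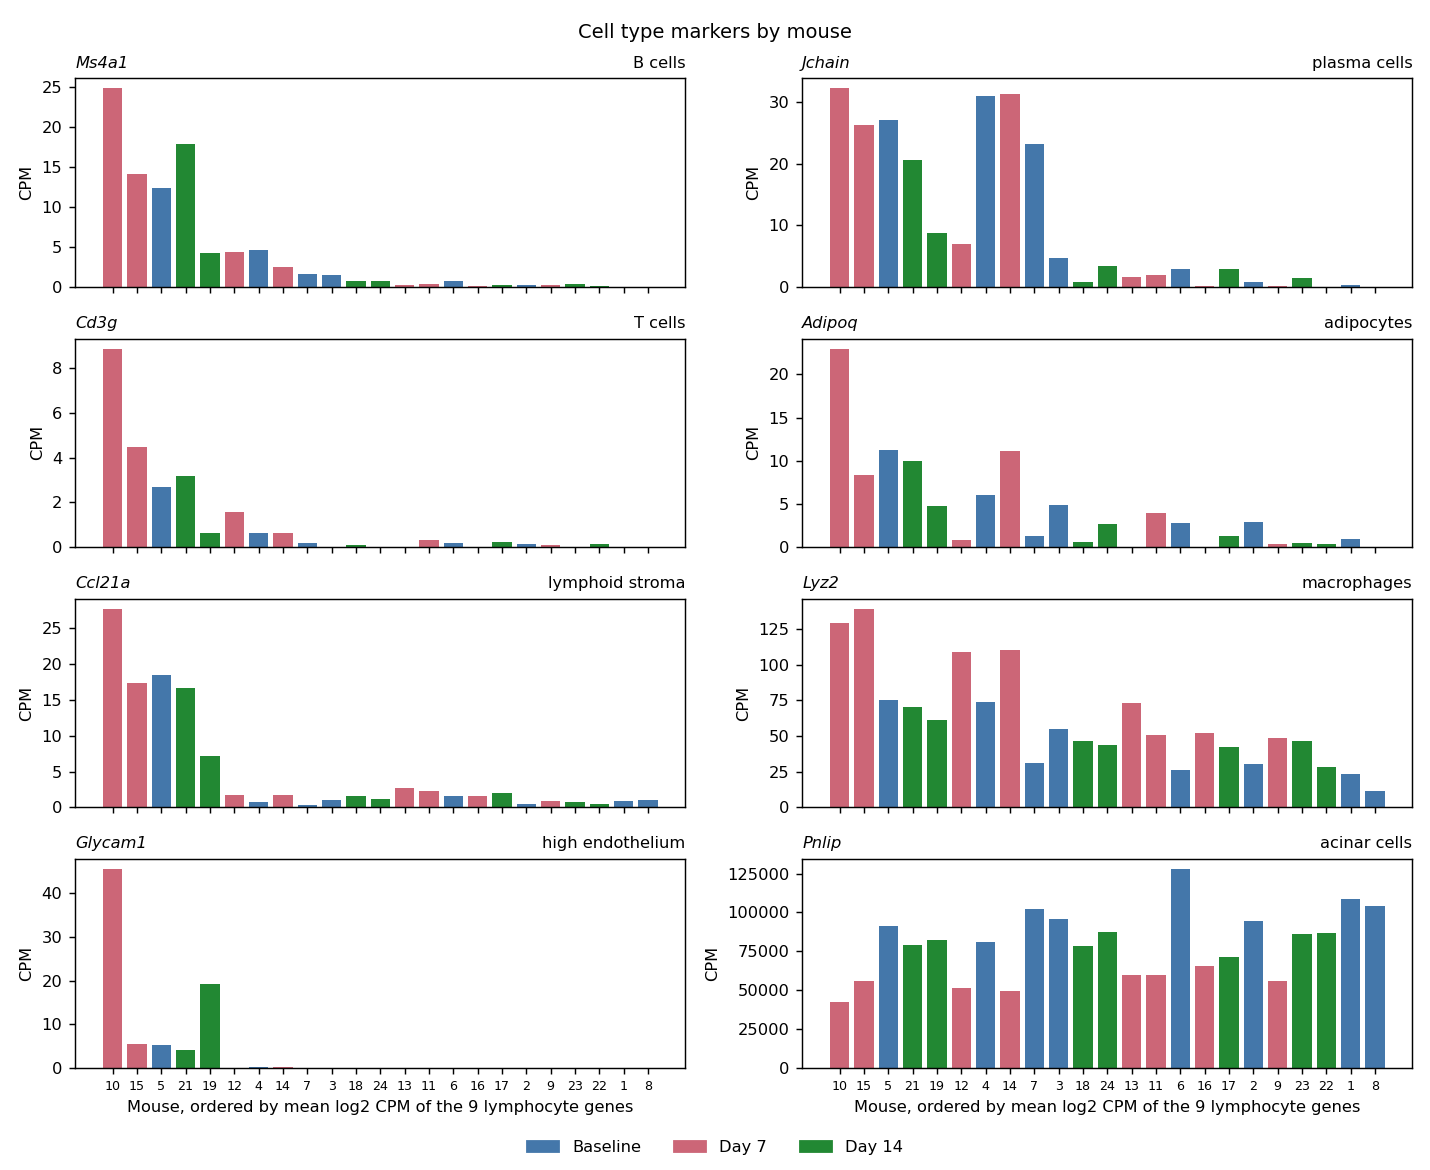
CPM (y axis, linear from 0) of a marker of each named cell type in every mouse (x axis), with mice ordered by the mean log2 CPM of the 9 lymphocyte genes and bars coloured by time point. *Ccl21a* and *Glycam1* stand out in mice 10, 15, 5, 21 and 19, *Jchain* also in mice 4, 14 and 7, and the acinar lipase *Pnlip* is high in every mouse.

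The genes whose pattern over mice was most like the mean of the 9 were themselves mostly leukocyte genes. After the mean of each time point was subtracted, the 10 with the highest Pearson's r over 23 mice were *Pou2af1* (0.988), *Btla* (0.982), *Ikzf1* (0.981), *Bank1* (0.98), *H2-Ob* (0.98), *Dock2* (0.979), *Arhgdib* (0.979), *Wdfy4* (0.979), *Marco* (0.978) and *Ikzf3* (0.978). *Pou2af1* encodes a B cell coactivator of octamer factors, *Btla* an inhibitory receptor of lymphocytes, *Ikzf1* and *Ikzf3* transcription factors of lymphocytes, and *Marco* a scavenger receptor of macrophages. In the 19 mice these 10 genes had r between 0.922 and 0.967. Of the 12492 other tested genes, 273 (2.19%) had r of at least 0.9 over 23 mice and 32 over the 19, all of them among the 273. These values are descriptions, without a test, and the mice share library and depth as above. Without mice 5, 10, 15 and 21, 6 of 15 B cell and 1 of 16 T cell genes, those of the 9 included, had enough counts for testing. The likeness of the others to a mean led by those mice was therefore partly set by the filter on counts. Likeness to the mean had a median of 0.971 over 12 other B cell genes, 0.926 over 15 other T cell genes, 0.934 over 3 plasma cell genes, 0.814 over 6 adipocyte genes, 0.668 over 12 macrophage genes and -0.512 over 10 acinar genes, beside -0.0767 over the other tested genes. Over the 19 mice it was 0.897 for the B, 0.714 for the T and 0.928 for the plasma cell genes. There it was 0.662 for the adipocyte, 0.628 for the macrophage and -0.548 for the acinar genes, beside -0.011 over the other tested genes. The median of 8 MHC class II genes was 0.95 over 23 mice and 0.888 over the 19. That of 16 other leukocyte genes was 0.943 and 0.804, so both lists lay above the T cell genes in either set of mice. For 8 lymphoid stroma genes the median was 0.869 over 23 mice and 0.653 over the 19. For the 6 that are not on the B cell list it was 0.775 over 23 mice and 0.532 over the 19. Over 23 mice these 6 ranged from 0.109 (*Prox1*) to 0.881 (*Lyve1*). The plasma cell list shares *Pou2af1* with the B cell list, and the other genes tested were *Mzb1* (0.934 over 23 mice) and *Jchain* (0.838).

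Whether the lymphocyte genes differed between time points was tested with edgeR's quasi-likelihood method, in 1 model of the 23 libraries that also held a term for sex. Genes counted as DEGs where the adjusted p did not exceed 0.05 and the level changed 1.5-fold or more. In this model 8 of the 9 genes had enough counts for the test, *Cd3e* being the exception, and 4 of them (*Cd3g*, *Cd79a*, *Ltb* and *Cd37*) passed that filter owing to mice 5, 10, 15 and 21: without these mice it kept *Cd79b*, *Ms4a1*, *Ptprc* and *Coro1a*.

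At day 7 none of the lymphocyte genes was a DEG. Among all 12500 genes, 631 or 5.05% were, 473 (3.78%) higher and 158 (1.26%) lower than at baseline. The 8 log2 fold changes were all positive, with a median of 1.22 beside 0.0297 over all genes, but each lay within 2 SE of 0. As *Cd3g*, *Cd79a*, *Ltb* and *Cd37* were tested owing to the 4 highest mice, this count and median rest partly on those mice. Without them, 3 of the 4 genes tested were positive (median 0.47). When the filter was also dropped, 1 of 9 was negative. *Ptprc*, at a mean of 42.7 ± 52.0 CPM (SD, n = 8) against 18.5 ± 25.9 CPM (n = 8), had a log2 fold change of 1.25 (SE 0.798, edgeR adjusted p = 0.302). *Ms4a1*, at 5.83 ± 9.02 against 2.66 ± 4.24 CPM, had 1.19 (SE 1.14, adjusted p = 0.504), and *Cd3g*, at 1.99 ± 3.16 against 0.472 ± 0.916 CPM, had 2.03 (SE 1.17, adjusted p = 0.246), the smallest adjusted p of the 8. By edgeR, 0 of the 8 genes had an unadjusted p under 0.05. DESeq2, which gave no adjusted p for *Cd79b*, called none of the other lymphocyte genes. For *Ptprc* 2 of 8 day 7 mice, 10 and 15, were above every baseline mouse, and the remaining values overlapped.

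The day 7 estimates depended on single mice. Without mouse 10 the log2 fold change of *Ptprc* was 0.416, that of *Coro1a* 0.356 and that of *Ltb* 0.62, and those of *Cd79a* (-0.286), *Cd79b* (-0.325) and *Cd37* (-0.0533) turned negative. Without mouse 5, the highest baseline mouse, *Ptprc* was at 2.15, *Coro1a* at 2.45 and *Ltb* at 3.97, with edgeR adjusted p of 0.0662, 0.0717 and 0.0514, each the smallest over all mice left out in turn. Without mice 5, 10, 15 and 21, when 562 of 12096 genes (4.65%) were DEGs, *Ptprc* had a log2 fold change of 0.834 (SE 0.465, adjusted p = 0.256) and *Coro1a* of 0.961 (SE 0.58, adjusted p = 0.297), while *Ms4a1* had 0.105 (SE 0.964, adjusted p = 0.961) and *Cd79b* -0.638 (SE 0.856, adjusted p = 0.672). Without these mice and without the filter, *Ltb* had 1.87 (SE 1.01, adjusted p = 0.314) and *Cd3g* 1.44 (SE 0.833, adjusted p = 0.333).

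At day 14 none of the 8 genes was a DEG either, beside 93 of all genes (0.744%), of which 85 (0.68%) were higher and 8 (0.064%) lower. The median log2 fold change against baseline was 0.264, with 7 of 8 positive, beside 0.0178 over all genes. Without the 4 highest mice, 2 of the 4 genes tested were positive (median 0.143), and without the filter as well 4 of 9 were negative. *Ptprc*, at a mean of 23 ± 29.0 CPM (n = 7), had a log2 fold change of 0.269 (SE 0.832, edgeR adjusted p = 0.95), and *Cd79b*, at 2.75 ± 4.51 against 2.74 ± 4.66 CPM, one of -0.0648 (SE 1.16, adjusted p = 0.995). Between day 14 and day 7 the 8 values were all negative (median -0.975, beside -0.01 over all genes), and none passed, beside 48 of all genes (0.384%). The smallest adjusted p was 0.546, for *Cd3g* (log2 fold change -1.77, SE 1.16). Between these days, 1 of the 4 genes tested without the 4 highest mice was positive (median -0.358). When the filter was also dropped, 7 of 9 were negative. Both comparisons had 0 genes of the 8 with an unadjusted p under 0.05 and 0 called by DESeq2. Without mouse 21 the day 14 value of *Ptprc* was -0.632 and without mouse 5 it was 1.28, so the direction was set by single mice. The day 7 and day 14 comparisons share the baseline mice.

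Between males and females, with the time point as a covariate, 28 of all genes (0.224%) were DEGs and none of the 8 lymphocyte genes, of which 0 had an unadjusted p under 0.05 and 0 were called by DESeq2. The 8 log2 fold changes were positive (male over female, median 0.354), and the 4 that could be tested without mice 5, 10, 15 and 21, 3 of which were males, were all negative (median -0.645). When the filter was also dropped, 8 of 9 were negative, *Cd3e* being the exception. The largest were *Cd79a* (-2.1, SE 0.981, edgeR unadjusted p = 0.0485, adjusted p = 0.476) and *Cd3g* (-1.6, SE 0.721, unadjusted p = 0.0339, adjusted p = 0.439), both from few counts, and none passed. The 4 mice had been left out for their high levels, and as 3 were males this choice by itself lowers the male values. The p-values without these mice therefore cannot measure a difference between the sexes.

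**Figure D5:**
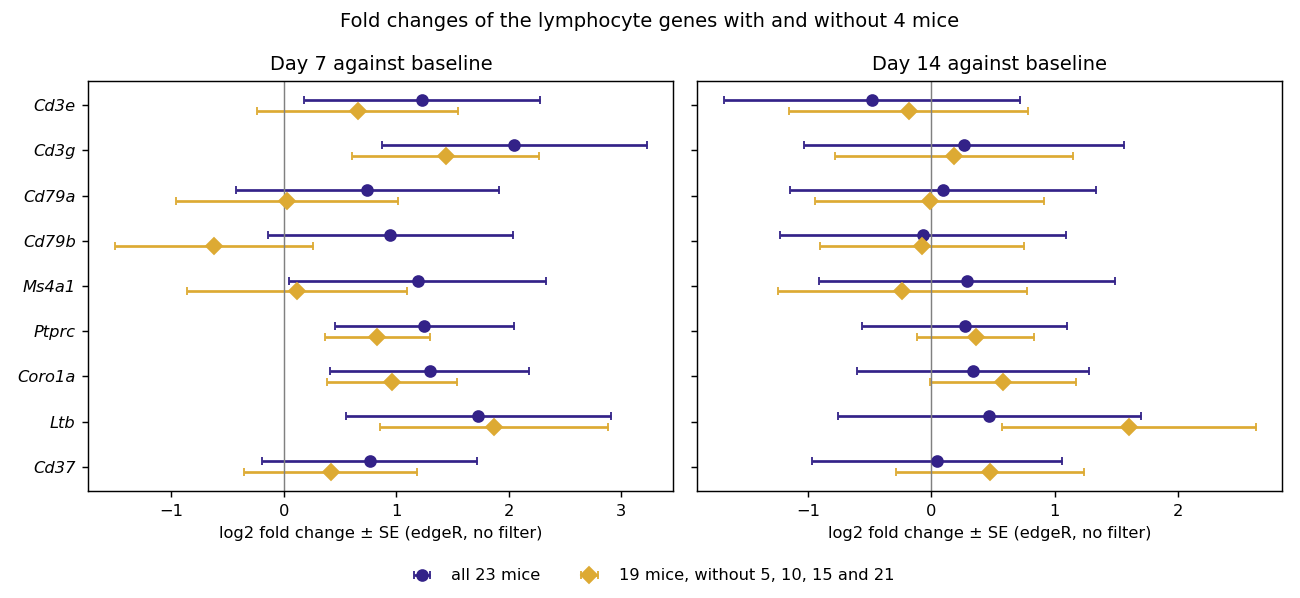
Log2 fold change with its SE (x axis; edgeR without a filter on low counts, so that *Cd3e* is included) of each lymphocyte gene (y axis) at day 7 and day 14 against baseline, for all 23 mice (circles) and for the 19 mice other than 5, 10, 15 and 21 (diamonds). At day 7 all 9 circles lie to the right of 0 and within 2 SE of it, the diamonds of *Cd79a* and *Ms4a1* lie near 0, that of *Cd79b* to its left, and those of *Ltb* (1.87) and *Cd3g* (1.44) farthest to its right.

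Related gene lists are given by their counts at day 7, beside the 3.78% of all genes that were higher and the 1.26% that were lower. No gene was called among 15 tested B cell genes (median log2 fold change 0.906, and -0.00186 over the 6 tested without mice 5, 10, 15 and 21), 16 T cell genes, 3 plasma cell genes (0.238, and -0.443 for the 1 tested without those mice), 2 natural killer genes, 8 MHC class II genes (0.941), 4 germinal centre genes led by *Mki67*, *S1pr2* and *Bcl6* (0.23) or 6 adipocyte genes (0.65, and -0.165 over the 5 tested without those 4 mice). Of the T cell genes 1 (log2 fold change -0.108) and of the natural killer genes 0 passed the filter without those mice, so no median is given for them. Among 19 leukocyte genes, led by *Lcp1*, *Cytip* and *Dock2*, none was called (median 0.968), and 1 of 17 was without the 4 mice (median 0.616). Of 12 macrophage genes, 10 rose (*Lyz2*, *Cd68*, *Adgre1*, *Cd14*, *Ms4a7*, *Mrc1*, *C1qb*, *C1qc*, *C1qa* and *Itgam*), and again 10 without the 4 mice. *Lyz2*, the lysozyme of macrophages, rose by 1.12 on the log2 scale (SE 0.342, edgeR adjusted p = 0.0285), and *Mrc1*, the mannose receptor, by 0.74 (SE 0.155, adjusted p = 0.00224). Of 8 lymphoid stroma genes, led by *Lyve1*, *Ccl21a* and *Cr2*, *Prox1* and *Ackr4* rose, both known from lymphatic endothelium, and 1 gene of 5 did so without the 4 mice. Of 4 dendritic cell genes *Zbtb46* fell. None of 6 tested genes of tumour necrosis factor and lymphotoxin signalling passed, among them *Ltbr*, the lymphotoxin beta receptor, with a log2 fold change of -0.23 (SE 0.0779, adjusted p = 0.0416) that was under the fold threshold, *Tnfrsf1a* and *Tnfrsf1b*. No gene of the neutrophil and intestinal lists had enough counts for the test.

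In the remaining lists at day 7, 6 of 7 fibroblast genes rose (*Col3a1*, *Dcn*, *Lum*, *Col1a1*, *Pdgfra* and *Col1a2*), as did 4 of 7 islet genes (*Chga*, *Ins1*, *Iapp* and *Ins2*), 2 of 6 duct genes (*Krt7* and *Spp1*) and 4 of 5 erythroid genes (*Hba-a1*, *Hba-a2*, which share their counts, *Hbb-bt* and *Alas2*; 3 without mice 5, 10, 15 and 21), whereas 5 of 10 acinar genes fell (*Pnlip*, *Cela3b*, *Cpa1*, *Prss2* and *Ctrb1*). At day 14 *Lum* and *Pdgfra* of the 7 fibroblast genes were higher than at baseline, beside 0.68% of all genes. Between day 14 and day 7 *Emcn* and *Cdh5* of the 6 endothelial genes were higher at day 14, beside 0.384% of all genes that were DEGs in either direction. No other listed gene passed in these comparisons or between the sexes.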

How the data were processed

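Gene counts of 23 mice were analysed. To make the deposited counts, the authors depleted total RNA of ribosomal RNA, made stranded libraries, trimmed the reads with Trim Galore and Cutadapt, aligned them to mm10 with STAR (2.5.2a per the labels) and counted uniquely mapped fragments per gene symbol with featureCounts. The annotation and strand setting are not given in the sources used here. Reads that mapped to several places were not counted.

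The 9 genes and all lists were chosen with earlier results of these data known. The named genes are the 9, the genes of each list that passed or were its 3 most abundant, and the 10 most like the mean of the 9. Counts were scaled with TMM and tested with edgeR 4.0.16 (R 4.3.3, limma 3.58.1; filterByExpr, robust quasi-likelihood F test) on 12500 genes, with Benjamini-Hochberg adjustment over all of them; the SE is the log2 fold change over the root of F. The script was tested on simulated data. Log2 CPM used a prior count of 2. Correlations had two-sided permutation p-values, exact within a time point and from 100000 permutations over 23 or 19 mice, adjusted over 36 pairs. Lengths are exon unions of GENCODE vM21. Each mouse is 1 library, so p-values measure the spread between mice. No 2 libraries of a time point agreed within counting noise (lowest mean chi-square per gene 4.06).

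Alternatives were DESeq2 1.42.0, its size factors, total count scaling with or without the 20 most abundant genes, no filter, at least 10 counts in every mouse, no fold threshold, no covariate, only the mice compared, a prior count of 0.5, and each mouse left out (20000 permutations for correlations). Leaving out mice 5, 10, 15 and 21, the 4 with the most *Ptprc*, with or without the filter, was added after seeing the data, as were *Cxcl13* and the lists without shared genes. Python 3.11.15, numpy 2.4.6, scipy 1.17.1 and matplotlib 3.10.9 were used. Sequences of proteins were not analysed here.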

Additional observations from a re-analysis of the deposited data

Results flagged for a closer look

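In 15 of 27 groups of CPM values (9 genes at 3 time points) the highest mouse lay farther from the next one than Dixon's 95% critical value allows. That value flags about 1 in 20 groups of normally distributed values. CPM was skewed towards high values in these groups, so this rate does not hold for them and the count of 15 cannot be set against it. The 9 genes are also correlated, so these groups are not independent. At baseline the flagged mouse was mouse 5 for all 9 genes, with CPM values of *Cd3e* (2.2), *Cd3g* (2.68), *Cd79a* (5.49), *Cd79b* (13.9), *Ms4a1* (12.4), *Ptprc* (80.7), *Coro1a* (35.6), *Ltb* (7.93) and *Cd37* (6.46). At day 14 it was mouse 21 for 6 genes, with *Cd3e* (1.39), *Cd3g* (3.2), *Cd79b* (12.6), *Ms4a1* (17.9), *Ptprc* (85.8) and *Coro1a* (37.8). At day 7 no mouse was set apart in this way, and mice 10 and 15 were both high.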

How the results depend on the processing

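Under every alternative listed, with all mice or with mice left out, 0 of the tested lymphocyte genes passed in any of the 4 comparisons (DESeq2 gave no adjusted p for *Cd79b* at day 7), and 36 of 36 pairs passed for r, with each mouse left out as well; the median r was 0.864 with a prior count of 0.5 and 0.924 with total counts. The median SD of log2 CPM rose to 2.27, 2.51 and 2.11 at baseline, day 7 and day 14 with a prior count of 0.5, fell to 1.0, 0.922 and 1.22 without mice 5, 10, 15 and 21, and lay at 1.0 to 1.73, 1.63 to 2.15 and 1.22 to 1.73 with 1 mouse left out. Counts of DEGs among all genes, given in the order day 7 against baseline, day 14 against baseline, day 14 against day 7 and male against female, moved with total count scaling (3807, 448 and 468 for the first 3), which shifts the median log2 fold change of all genes at day 7 to 0.48, with no fold threshold (2203, 160, 153 and 63), with at least 10 counts in every mouse (352 at day 7, 16 between sexes) and without the covariate (15 between sexes); with 1 mouse left out they were 516 to 846, 66 to 102, 21 to 52 and 25 to 34, with the lowest for day 14 against day 7 (48 in all mice) at 21, 22, 28 and 31 without mice 22, 15, 24 and 17. The cause was not tested.

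The direction of single genes turned as follows. With total counts *Cd79b* at day 14 was at 0.112. Without mice 5, 10, 15 and 21, *Cd79b* was at -0.638 at day 7 and 0.565 between day 14 and day 7, *Ms4a1* at -0.227 at day 14, and between the sexes *Cd79b*, *Ms4a1*, *Ptprc* and *Coro1a* were at -0.665, -1.2, -0.51 and -0.625. Without these mice and without a filter, *Cd79b* was at -0.621 at day 7, *Cd79a* and *Ms4a1* at -0.0154 and -0.236 at day 14, *Cd79b* and *Cd37* at 0.544 and 0.0601 between day 14 and day 7, and *Cd3g*, *Cd79a*, *Cd79b*, *Ms4a1*, *Ptprc*, *Coro1a*, *Ltb* and *Cd37* at -1.6, -2.1, -0.658, -1.21, -0.51, -0.628, -0.679 and -0.849 between the sexes. With 1 mouse left out, day 7 values ranged from -0.286 to 1.92 (*Cd79a*), -0.325 to 2.06 (*Cd79b*) and -0.0533 to 1.98 (*Cd37*). At day 14 they ranged from -1.31 to 1.4 (*Cd79a*), -1.32 to 1.2 (*Cd79b*), -1.41 to 1.45 (*Ms4a1*), -0.632 to 1.28 (*Ptprc*), -0.666 to 1.6 (*Coro1a*), -0.773 to 2.87 (*Ltb*) and -0.792 to 1.33 (*Cd37*). Between day 14 and day 7 they ranged from -1.92 to 0.347 (*Cd79a*), -2.13 to 0.225 (*Cd79b*), -2.42 to 0.147 (*Ms4a1*) and -1.45 to 0.122 (*Cd37*). Between the sexes they ranged from -0.552 to 0.976 (*Cd79a*), -0.00586 to 1.74 (*Cd79b*), -0.317 to 1.36 (*Ms4a1*), -0.183 to 1.01 (*Ptprc*), -0.257 to 1.15 (*Coro1a*), -0.0158 to 1.85 (*Ltb*) and -0.238 to 1.07 (*Cd37*). No paired analysis was possible because each mouse number belongs to 1 time point. Outside mice 5, 10, 15 and 21 and the second tier (mice 4, 12, 14 and 19), most of the 9 genes had few counts. This limits what can be said of lymphocytes in those remaining mice.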

Other observations

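The share of *Cd3e* and *Cd3g* in the summed counts of *Cd3e*, *Cd3g*, *Cd79a*, *Cd79b* and *Ms4a1* was compared between time points after the values of single mice had been seen. The p-values and their adjustment do not account for that choice, so they cannot establish a difference. Over all mice of a time point the share was 18.4% at day 7 (279 T and 1241 B counts), 11.6% at baseline (54 and 410) and 10.8% at day 14 (59 and 489). As counts were pooled, a few mice dominated these shares. Mice 10 and 15 gave 166 and 74 of the day 7 T counts, mouse 5 gave 40 at baseline and mouse 21 gave 43 at day 14. In exact two-sided permutation tests of the mice, day 7 differed from baseline by 6.72 percentage points (p = 0.0183, 0.0275 adjusted over 3 comparisons) and day 14 from day 7 by -7.59 points (p = 0.00684, adjusted 0.0205), while day 14 and baseline differed by -0.872 points (p = 0.761). The same share computed from 21 other T cell genes and 16 other B cell genes was 46.1% at day 7, 41.7% at baseline and 41.7% at day 14, a difference of 4.45 points between day 7 and baseline, and none of the 3 differences passed the exact permutation test (p = 0.806, 0.978 and 0.863). Whether the shares from the 2 sets of genes differ in their change was not tested. *Tcf7* and *Ebf1*, which are also used outside lymphocytes, are among those other genes.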
